A study of Mus musculus with 13 samples.

Results

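The cytokine genes *Il12a*, *Il12b*, *Il23a*, *Il27*, *Ebi3*, *Il10* and *Il15* and the receptor genes *Il10ra*, *Il10rb* and *Il15ra* were followed in bone marrow-derived macrophages (BMDMs) by RNA-seq. They are 10 of the 24445 gene symbols in the table of transcript counts, and each is represented here by the 1 transcript of its symbol that held most counts. After a filter on low counts 9 of the 10 were tested, and *Il23a* was not. BMDMs are macrophages derived from bone marrow in culture with L929-conditioned medium, and all cultures used here received lipopolysaccharide (LPS), a component of the bacterial outer membrane. Control cells came from C57Bl/6J mice with floxed *Acly* (Acly fl/fl). AclyM-KO cells carried the same floxed allele and Cre under the LysM (*Lyz2*) promoter, which removes the floxed exon in myeloid cells. *Acly* encodes ATP citrate lyase, which makes cytosolic acetyl-CoA from citrate. After 3 h LPS there were 3 control and 3 AclyM-KO libraries, and after 24 h LPS 4 control and 3 AclyM-KO libraries. Unstimulated cells were not analysed here. The labels do not state that replicates came from separate mice, so the p-values measure the spread between these samples, which may be technical. The age of the mice that gave the marrow was not given in the sources used here.

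The IL-12 family consists of heterodimers that share chains. IL-12 pairs p40 (*Il12b*) with p35 (*Il12a*), IL-23 pairs p40 with p19 (*Il23a*), and IL-27 pairs p28 (*Il27*) with *Ebi3*. Macrophages and dendritic cells make these cytokines after recognising microbes and thereby direct T and NK cells, while IL-10 acts back on macrophages through *Il10ra* and *Il10rb* and restrains inflammatory gene expression. IL-15 is bound by its alpha receptor chain (*Il15ra*) on the producing cell and presented to neighbouring lymphocytes, which it keeps alive.

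Control 24 h replicate 1 held 34467 counts in all, and the other 12 libraries held 21274102 to 59577343. Only 401 genes reached 10 counts there, and 1 count was worth 22.4 CPM (counts scaled to a common library size by TMM), so that it was left out of the values below. Over genes its correlation with the 3 h libraries was 0.731 to 0.734 and with the 24 h libraries 0.673 to 0.675. *Acly* ranged from 105 to 107 CPM in control and from 37.7 to 46.2 CPM in AclyM-KO libraries at 3 h. At 24 h the ranges were 107 to 113 CPM and 29.1 to 30.5 CPM, so the groups did not overlap at either time, and the log2 fold change was -1.34 (SE 0.06) at 3 h and -1.88 (SE 0.06) at 24 h (edgeR's quasi-likelihood test, adjusted p = 6.41e-16 and 4.81e-20). All 8 macrophage markers of the list were tested, and their summed level was 9984 to 10081 CPM in control and 6915 to 7852 CPM in AclyM-KO libraries at 3 h, and 6031 to 6333 CPM and 4523 to 4627 CPM at 24 h. *Lyz2*, the gene whose promoter drives Cre, is one of these markers and fell in AclyM-KO cells, with log2 fold changes of -0.97 at 3 h and -1.40 at 24 h (edgeR's quasi-likelihood test, Benjamini-Hochberg adjusted p = 1.10e-07 and 1.91e-09). The other 7 macrophage markers summed to 4716 to 4860 CPM in control and 4643 to 4908 CPM in AclyM-KO libraries at 3 h, and to 3635 to 3812 CPM and 3579 to 3767 CPM at 24 h, with the genotypes overlapping at both times. By the adjusted p of edgeR's test, 5 of the 8 markers differed at 3 h, where 15.4% of all genes did. *Adgre1* was higher in AclyM-KO cells (log2 difference 0.24), and *Lyz2*, *Mertk* (-0.31), *Fcgr1* (-0.26) and *Cd14* (-0.15) were lower. At 24 h 2 of the 8 differed, where 13.9% of all genes did, with *Lyz2* and *Mertk* (-0.33) lower. Dendritic cell markers, 2 of 6 tested, were near 0 and summed to 1.59 to 1.8948 CPM in control and 1.8954 to 2.55 CPM in AclyM-KO libraries at 3 h, and to 1.43 to 1.71 CPM and 2.23 to 2.61 CPM at 24 h. The AclyM-KO libraries were thus the higher ones at 24 h. Most of this 24 h sum was 1 gene, *Ccr7*, at 0.861 to 1.24 CPM in control and 1.61 to 2.05 CPM in AclyM-KO libraries. *Ccr7* rose from 3 h to 24 h by 2.73 in control and 3.60 in AclyM-KO cells on the log2 scale. At 3 h the sums of the nearest libraries lay apart by less than 1 count, which was worth 0.044 to 0.051 CPM. By edgeR's adjusted p, 0 of the 2 tested markers differed between genotypes at either time. Lymphocyte markers summed to at most 0.262 CPM with 0 of 6 tested. Neutrophil markers summed to 11.02 to 13.6 CPM at 3 h and 3.12 to 4.25 CPM at 24 h with 3 of 7 tested, and fibroblast markers to at most 1.201 CPM with 1 of 4 tested. The part of these levels in the results below was not tested, and in such bulk RNA fewer cells of a type and less RNA per cell cannot be told apart.

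Over the time course, most of these genes were lower at 24 h than at 3 h. A gene was called changed at an adjusted p under 0.05 and a log2 fold change beyond 0.75, by edgeR's quasi-likelihood test with Benjamini-Hochberg adjustment over 19621 transcripts of 11942 genes. In control cells 6 of the 9 tested genes fell (*Il12b*, *Il27*, *Il10*, *Il10ra*, *Il15* and *Il15ra*) and 0 rose, where 19.5% of all genes tested fell and 20.9% rose. In AclyM-KO cells 5 of 9 fell, the same ones without *Il15ra*, where 20% of all genes fell and 21.9% rose. The median log2 fold change from 3 h to 24 h was -0.97 in control and -1.26 in AclyM-KO cells for the 9 genes, against 0.04 in both for all genes.

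**Figure D1:**
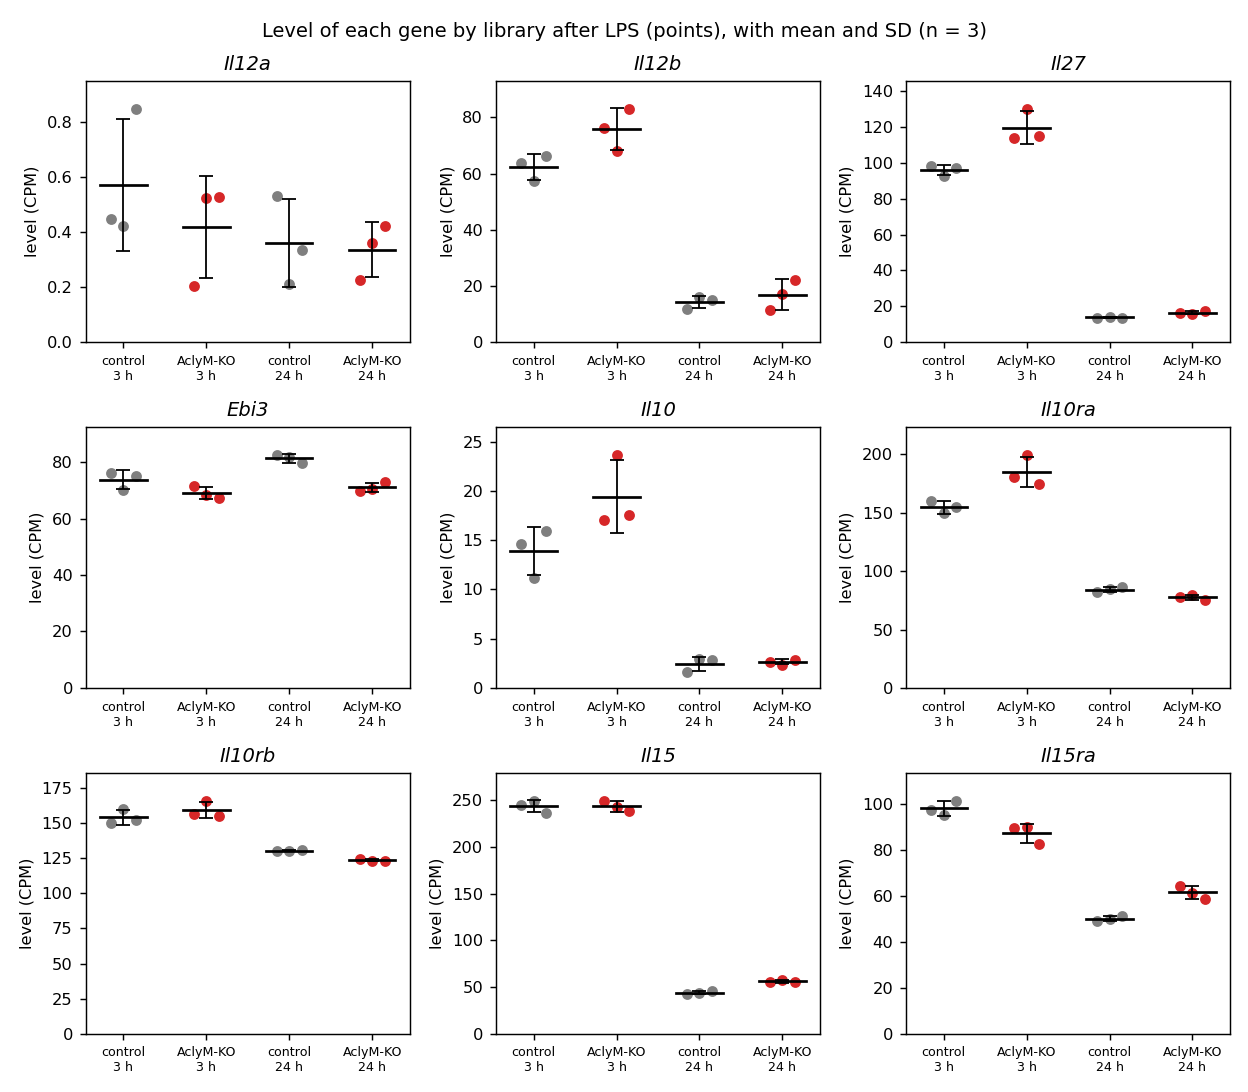
Level of the 9 tested genes (y axis, CPM on a linear scale from 0, a separate axis per gene) in each of the 12 libraries, by genotype and time (x axis). Points are libraries, horizontal bars are group means and error bars the SD (n = 3). Il27, Il12b, Il10 and Il15 are high at 3 h and low at 24 h in both genotypes, and Ebi3 stays between 67.3 and 82.6 CPM throughout.

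Differences between genotypes stayed within the fold threshold. At both 3 h and 24 h 0 of the 9 genes were changed between AclyM-KO and control cells, where 2.01% and 1.38% of all genes tested were (DESeq2 also called 0 and 0). At an unadjusted p under 0.05 in edgeR's quasi-likelihood test there were 4 of 9 at 3 h and 5 of 9 at 24 h. Of all 11942 genes, 2919 had a p of at most 0.0330 in this test at 3 h and 3717 of at most 0.0672. At 24 h 3057 had a p of at most 0.0463 and 3586 of at most 0.0719. By the adjusted p alone, with no demand on the fold, 4 of 9 differed at 3 h (*Il27*, *Il10* and *Il10ra* higher and *Il15ra* lower in AclyM-KO cells), where 15.4% of all genes did. At 24 h 4 of 9 differed (*Il27*, *Il15* and *Il15ra* higher and *Ebi3* lower), where 13.9% of all genes did. The libraries of the genotypes did not overlap for 5 of 9 genes at 3 h, where this held for 30.1% of all genes, and for 6 of 9 at 24 h, where it held for 33.0%. The median log2 fold change of the 9 genes was 0.05 at both times, against -0.01 at 3 h and 0.01 at 24 h for all genes.

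**Figure D2:**
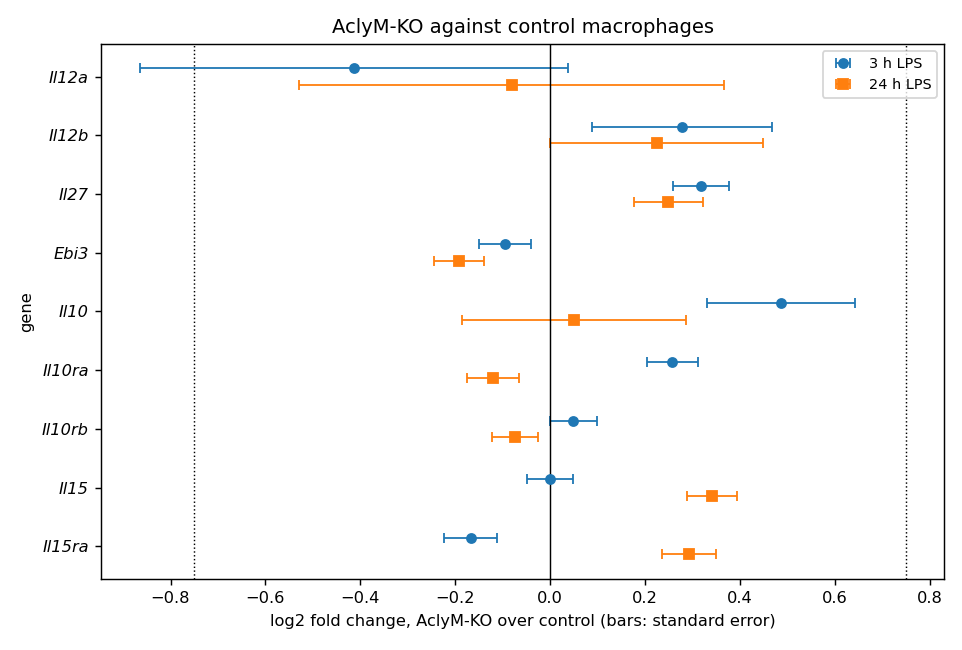
Log2 fold change of AclyM-KO over control (x axis) for the 9 tested genes (y axis) after 3 h and 24 h LPS, with standard errors as bars and dotted lines at the fold threshold of 0.75 in each direction. All points lie inside the dotted lines, from -0.41 (Il12a at 3 h) to 0.49 (Il10 at 3 h), and Il15 and Il15ra lie further right at 24 h than at 3 h.

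Upstream sequence of 3 of these genes is shown because they differ in their course from 3 h to 24 h: *Il12b* fell, *Ebi3* stayed near its 3 h level, and *Il15ra* differed in its genotype effect between the times. RefSeq promoter windows of GRCm38.p6 were found for 4 of the 10 genes (*Il12a*, *Il12b*, *Ebi3* and *Il15ra*) and not for *Il23a*, *Il27*, *Il10*, *Il10ra*, *Il10rb* and *Il15*. Each sequence holds the 250 bases before the start site on the plus strand, 5′ to 3′, and capitals mark matches to the motifs searched. The windows are chr11:44399813-44400062 for *Il12b*, chr17:55952373-55952622 for *Ebi3*, and chr2:11705043-11705292 and chr2:11705462-11705711 for the first and second start site of *Il15ra*.
Il12b: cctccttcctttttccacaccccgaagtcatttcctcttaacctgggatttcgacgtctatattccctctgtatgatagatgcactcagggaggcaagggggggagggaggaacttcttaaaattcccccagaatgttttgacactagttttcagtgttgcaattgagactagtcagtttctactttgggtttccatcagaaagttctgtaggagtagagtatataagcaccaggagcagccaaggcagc
Ebi3: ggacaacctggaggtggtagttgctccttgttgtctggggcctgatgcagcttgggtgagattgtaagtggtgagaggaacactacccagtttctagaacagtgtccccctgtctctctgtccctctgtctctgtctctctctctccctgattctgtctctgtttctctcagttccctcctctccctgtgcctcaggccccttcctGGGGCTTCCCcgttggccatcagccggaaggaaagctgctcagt
Il15ra, first start site: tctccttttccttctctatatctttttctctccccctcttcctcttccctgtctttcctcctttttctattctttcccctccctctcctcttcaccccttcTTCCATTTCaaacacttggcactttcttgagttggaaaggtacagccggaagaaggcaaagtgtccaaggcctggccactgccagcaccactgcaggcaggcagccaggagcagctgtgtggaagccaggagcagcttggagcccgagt
Il15ra, second start site: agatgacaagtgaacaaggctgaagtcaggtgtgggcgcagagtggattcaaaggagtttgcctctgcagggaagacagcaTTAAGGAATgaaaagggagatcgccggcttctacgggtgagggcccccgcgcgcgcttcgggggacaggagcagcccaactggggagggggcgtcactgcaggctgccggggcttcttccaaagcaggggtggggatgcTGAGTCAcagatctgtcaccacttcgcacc
The motifs were the kappaB consensus bound by NF-kappaB, GAAANNGAA (core of the interferon-stimulated response element), TTNNGNAAT (C/EBP), TGANTCA (AP-1) and TTCNNNGAA (STAT), on both strands. The *Ebi3* window held a kappaB consensus at -44 to -35 from the start site, as did 7.25% of the 32851 promoter windows in the table. The first *Il15ra* window held GAAANNGAA on the minus strand at -149 to -141, which 7.13% of windows held. The second *Il15ra* window held TTNNGNAAT at -169 to -161 and TGANTCA at -30 to -24, which 10.2% and 6.75% of windows held. TTCNNNGAA, found in 7.02% of all windows, was in none of these 4, and the *Il12b* window held none of the 5 motifs in these letters. A match is a description of the letters, and binding was not measured here.

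*Il12b*, which encodes the p40 chain shared by IL-12 and IL-23, lies on chromosome 11 from 44400063 to 44414033 on the plus strand of GRCm38 (mm10). In control cells it was at 63.6, 57.4 and 66.4 CPM in the 3 libraries at 3 h and at 11.9, 16.2 and 14.9 CPM at 24 h. In AclyM-KO cells it was at 76.1, 68.1 and 83.0 CPM at 3 h and at 11.3, 17.2 and 22.2 CPM at 24 h. All 3 h libraries lay above all 24 h libraries, while at 24 h the genotypes overlapped. *Il12b* fell by 2.11 (SE 0.21) on the log2 scale in control cells and fell by 2.17 (SE 0.21) in AclyM-KO cells (edgeR's quasi-likelihood test, adjusted p = 1.22e-05 and 9.55e-06). At 3 h its AclyM-KO libraries all lay above the controls, with a log2 difference of 0.28 (SE 0.19) that did not pass edgeR's test (adjusted p = 0.400). With only the 2 groups compared in the fit, the same log2 difference had an adjusted p of 0.0263. At 24 h the log2 difference between genotypes was 0.22 (SE 0.22, edgeR adjusted p = 0.586), and without AclyM-KO 24 h replicate 3 it was -0.026.

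The partner chains of p40 were rare. *Il12a* (p35, chromosome 3, 68690644 to 68698547, plus strand) had 9, 9 and 17 counts in the control and 4, 12 and 11 counts in the AclyM-KO libraries at 3 h. At 24 h it had 13, 5 and 22 counts in control and 6, 9 and 11 counts in AclyM-KO libraries. These counts gave 0.57 ± 0.24 and 0.42 ± 0.19 CPM at 3 h and 0.36 ± 0.16 and 0.34 ± 0.10 CPM at 24 h (mean ± SD, n = 3, control and AclyM-KO), with all groups overlapping. No difference in *Il12a* was detectable at this depth, by genotype at 3 h (log2 difference -0.41, SE 0.45, edgeR adjusted p = 0.602) or 24 h (-0.08, SE 0.45, adjusted p = 0.932), or by time in control (-0.67, SE 0.42, adjusted p = 0.148) or AclyM-KO cells (-0.34, SE 0.48, adjusted p = 0.524). *Il23a* (p19, chromosome 10, 128296139 to 128298752, minus strand) had 0, 0 and 4 counts in control and 1, 4 and 4 counts in AclyM-KO libraries at 3 h. At 24 h it had 2, 0 and 1 counts in control and 3, 0 and 0 counts in AclyM-KO libraries. A count of 0 allows up to 3 counts, or 0.115 to 0.149 CPM in the 5 libraries at 0, by counting error alone, and no fold change was computed for *Il23a*.

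*Il27*, the p28 chain of IL-27, lies on chromosome 7 from 126589010 to 126594941 on the minus strand, and its exonic sequence overlaps *Apobr* on the opposite strand. In control cells *Il27* was at 98.4, 92.6 and 97.1 CPM at 3 h and at 13.7, 14.3 and 13.7 CPM at 24 h. The AclyM-KO libraries read 114, 130 and 115 CPM at 3 h and 16.2, 15.7 and 17.5 CPM at 24 h. *Il27* had the steepest drop of the 9 genes in control cells, where it fell by 2.79 (SE 0.07) on the log2 scale, and fell by 2.86 (SE 0.07) in AclyM-KO cells (edgeR's quasi-likelihood test, adjusted p = 6.59e-26 and 3.79e-26). Every AclyM-KO library lay above every control library at both times. The log2 difference was 0.32 (SE 0.06) at 3 h and 0.25 (SE 0.07) at 24 h (edgeR's quasi-likelihood test, adjusted p = 2.64e-04 and 0.0185), below the fold threshold at both. The 3 h difference stayed under an adjusted p of 0.05 in 19 of 19 alternative settings, and the 24 h difference in 14 of 19. At 24 h the adjusted p was 0.125 without AclyM-KO replicate 3, 0.0576 without control replicate 2, 0.0749 without control replicate 4 and 0.0531 with the shallow library put back. The genotype effect at 24 h minus that at 3 h was -0.07 on the log2 scale (edgeR adjusted p = 0.721).

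*Ebi3*, the other chain of IL-27 (chromosome 17, 55952640 to 55957022, plus strand), did not share this drop. The control libraries read 76.1, 70.0 and 75.2 CPM at 3 h and 82.6, 81.7 and 79.5 CPM at 24 h. AclyM-KO libraries held 71.6, 68.3 and 67.3 CPM at 3 h and 69.9, 70.5 and 72.8 CPM at 24 h. At 24 h the AclyM-KO libraries all lay below the controls, and at 3 h the genotypes overlapped. From 3 h to 24 h the log2 fold change was 0.14 (SE 0.05) in control and 0.04 (SE 0.05) in AclyM-KO cells (edgeR's quasi-likelihood test, adjusted p = 0.0197 and 0.487), both within the fold threshold. In control cells the adjusted p was 0.0883 without 3 h replicate 2, 0.0573 without 24 h replicate 2 and 0.062 by DESeq2. The genotype difference was -0.09 (SE 0.05) at 3 h and -0.19 (SE 0.05) at 24 h on the log2 scale (edgeR adjusted p = 0.270 and 0.0127), and the effects at both times differed by -0.10 (adjusted p = 0.478). The 24 h difference kept an adjusted p under 0.05 in 15 of 19 settings, and it was 0.0624 without AclyM-KO replicate 1, 0.0508 without AclyM-KO replicate 2, 0.051 without control replicate 2 and 0.062 with the shallow library put back. The antisense gene *Gm16712* overlaps *Ebi3* exons on the opposite strand, and the strand setting of the counting was not given in the sources used here.

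**Figure D3:**
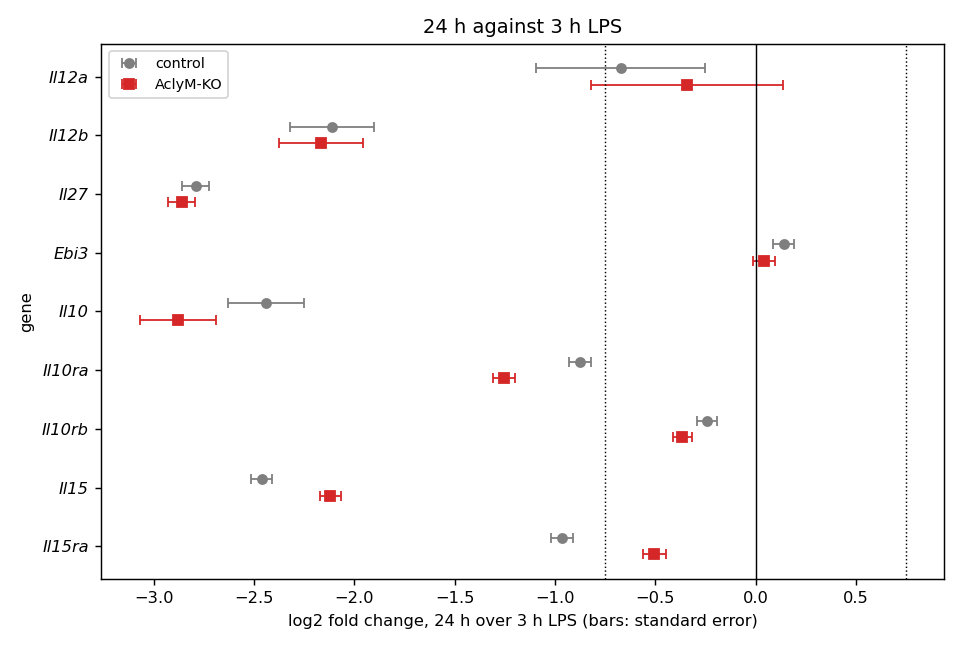
Log2 fold change from 3 h to 24 h LPS (x axis) for the 9 tested genes (y axis) in control and AclyM-KO cells, with standard errors as bars and dotted lines at the fold threshold of 0.75 in each direction. Il12b, Il27, Il10 and Il15 lie at -2.11 or below in both genotypes, Ebi3 lies near 0, and Il15ra lies beyond the dotted line in control cells (-0.97) and inside it in AclyM-KO cells (-0.51).

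*Il10* encodes the anti-inflammatory cytokine IL-10 (chromosome 1, 131019845 to 131024974, plus strand). Control libraries held 14.6, 11.2 and 15.9 CPM at 3 h and 1.64, 2.94 and 2.83 CPM at 24 h. In AclyM-KO cells it was at 17.01, 23.7 and 17.5 CPM at 3 h and at 2.67, 2.37 and 2.88 CPM at 24 h. At 3 h all AclyM-KO libraries lay above the controls, the nearest pair being 17.01 and 15.9 CPM, and at 24 h the genotypes overlapped. *Il10* fell by 2.44 (SE 0.19) in control and fell by 2.88 (SE 0.19) in AclyM-KO cells on the log2 scale (edgeR's quasi-likelihood test, adjusted p = 5.13e-09 and 6.23e-10). The 3 h genotype difference was 0.49 (SE 0.16) on the log2 scale, the largest of the 9 genes and below the fold threshold (edgeR's quasi-likelihood test, adjusted p = 0.0467). It stayed under 0.05 in 8 of 19 settings. Among the 3 h libraries, the adjusted p was 0.146 without control replicate 2, 0.0834 without control replicate 1, 0.106 without AclyM-KO replicate 2 and 0.0504 without AclyM-KO replicate 3, and leaving out any of 5 of the 24 h libraries gave 0.0508 to 0.0672. At 24 h the log2 difference was 0.05 (SE 0.24, edgeR adjusted p = 0.920), and the difference between both effects was -0.44 (SE 0.28, adjusted p = 0.386).

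*Il10ra*, the ligand-binding chain of the IL-10 receptor, lies on chromosome 9 from 45253837 to 45269149 on the minus strand. In control cells it was at 160, 149 and 155 CPM at 3 h and at 81.7, 84.6 and 86.2 CPM at 24 h. In AclyM-KO cells it was at 180, 200 and 175 CPM at 3 h and at 78.1, 79.3 and 74.99 CPM at 24 h. The AclyM-KO libraries thus all lay above the controls at 3 h and all below them at 24 h. The genotype difference was 0.26 (SE 0.05) at 3 h and -0.12 (SE 0.05) at 24 h on the log2 scale (edgeR's quasi-likelihood test, adjusted p = 1.10e-03 and 0.150). Without AclyM-KO 3 h replicate 2 the adjusted p at 24 h was 0.0491. The effects at both times differed by -0.38 (SE 0.08, edgeR's quasi-likelihood test, adjusted p = 1.43e-03), under 0.05 in 18 of 18 alternative settings. *Il10ra* fell by 0.88 (SE 0.05) from 3 h to 24 h in control and fell by 1.26 (SE 0.05) in AclyM-KO cells on the log2 scale (edgeR adjusted p = 2.64e-15 and 3.84e-19).

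*Il10rb*, the chain that IL-10 shares with the receptors of IL-22 and type III interferons (chromosome 16, 91406164 to 91425834, plus strand), stayed within the fold threshold in every comparison. The control libraries read 150, 160 and 152 CPM at 3 h and 130, 130 and 131 CPM at 24 h. The AclyM-KO libraries read 157, 166 and 155 CPM at 3 h and 125, 123 and 123 CPM at 24 h. All 24 h libraries lay below all 3 h libraries, with a log2 fold change of -0.24 (SE 0.05) in control and -0.37 (SE 0.05) in AclyM-KO cells that passed edgeR's test and not the fold threshold (adjusted p = 5.01e-05 and 6.87e-08). The genotype difference was 0.05 (SE 0.05) at 3 h and -0.07 (SE 0.05) at 24 h on the log2 scale (edgeR adjusted p = 0.562 and 0.343). *Il10rb* shares exonic sequence with *Gm21970* on the same strand, so these counts could include reads of that gene.

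*Il15* had the highest CPM of the 10 genes at 3 h (chromosome 8, 82331632 to 82403222, minus strand). Control libraries held 245, 249 and 237 CPM at 3 h and 42.7, 43.3 and 46.2 CPM at 24 h. AclyM-KO libraries held 249, 243 and 238 CPM at 3 h and 54.8, 57.5 and 55.6 CPM at 24 h. The genotypes overlapped at 3 h, and at 24 h every AclyM-KO library lay above every control library. *Il15* fell by 2.46 (SE 0.05) in control and fell by 2.12 (SE 0.05) in AclyM-KO cells on the log2 scale (edgeR's quasi-likelihood test, adjusted p = 3.68e-27 and 1.57e-25). The genotype difference was -0.00061 (SE 0.05) at 3 h and 0.34 (SE 0.05) at 24 h on the log2 scale (edgeR's quasi-likelihood test, adjusted p = 0.995 and 2.56e-05). The effects at both times differed by 0.34 (SE 0.07, edgeR adjusted p = 1.93e-03). This held in 17 of 18 settings, and with the shallow control 24 h library put back the difference was 0.33 with an adjusted p of 0.0601.

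*Il15ra* encodes the alpha chain that binds and presents IL-15 (chromosome 2, 11705290 to 11734317, plus strand). In control cells it was at 97.5, 95.2 and 101 CPM at 3 h and at 49.0, 50.1 and 51.4 CPM at 24 h. In AclyM-KO cells it was at 89.5, 89.8 and 82.5 CPM at 3 h and at 64.4, 61.3 and 58.8 CPM at 24 h. The AclyM-KO libraries all lay below the controls at 3 h and all above them at 24 h, the reverse of *Il10ra*. The genotype difference was -0.17 (SE 0.06) at 3 h and 0.29 (SE 0.06) at 24 h on the log2 scale (edgeR's quasi-likelihood test, adjusted p = 0.0367 and 4.28e-04). The 3 h difference held in 12 of 19 settings, and the 24 h difference in 19 of 19. At 3 h the adjusted p was 0.193 without AclyM-KO replicate 3, 0.162 without control replicate 3, 0.0933 without control replicate 1, 0.0513 without control replicate 2 and 0.0655 with the shallow library put back. The effects at both times differed by 0.46 (SE 0.08, edgeR's quasi-likelihood test, adjusted p = 1.90e-04), under 0.05 in 18 of 18 settings. *Il15ra* fell by 0.97 (SE 0.06) from 3 h to 24 h in control cells (edgeR adjusted p = 5.02e-16). In AclyM-KO cells its log2 fold change was -0.51 (SE 0.06, adjusted p = 1.66e-09), within the fold threshold.

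The genotype effects at 3 h and 24 h therefore differed for 3 of the 9 genes (*Il10ra* lower, *Il15* and *Il15ra* higher at 24 h relative to 3 h) by the adjusted p, where 9.59% of all genes tested did. The median difference of the effects was -0.07 on the log2 scale for the 9 genes and 0.01 for all genes. The 3 h and 24 h contrasts of 1 genotype and the 2 genotype contrasts use the same libraries, so these values are not separate evidence.

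Levels of chains that pair with each other were compared per transcript length, in RPKM, the CPM divided by the transcript length in kilobases, with no test. In control cells at 3 h *Il15* was at 195 RPKM, *Il27* at 94.1, *Il10rb* at 83.3, *Ebi3* at 63.9, *Il10ra* at 55.3, *Il15ra* at 50.6, *Il12b* at 33.6, *Il10* at 10.6 and *Il12a* at 0.439 (means, n = 3). *Il12b* was 83.3 ± 24.8 times as abundant as *Il12a* in control and 154 ± 92.7 times in AclyM-KO cells at 3 h, and 33.4 ± 18.9 and 35.0 ± 1.79 times at 24 h (mean ± SD, n = 3). The wide spread at 3 h goes with the 4 to 17 counts of *Il12a* per library. For IL-27, *Ebi3* per *Il27* was 0.679 ± 0.009 in control and 0.513 ± 0.046 in AclyM-KO cells at 3 h, and 5.18 ± 0.15 and 3.82 ± 0.15 at 24 h. The RNA in excess per length was thus *Il27* at 3 h and *Ebi3* at 24 h in both genotypes, and their proteins were not measured here. *Ebi3* per *Il27* was lower in AclyM-KO cells at both times without overlap. *Il15ra* per *Il15* was 0.260 ± 0.015 in control and 0.232 ± 0.008 in AclyM-KO cells at 3 h, and 0.736 ± 0.015 and 0.710 ± 0.042 at 24 h. *Il10ra* per *Il10rb* was 0.665 ± 0.045 and 0.766 ± 0.026 at 3 h, and 0.427 ± 0.010 and 0.414 ± 0.012 at 24 h, in control and AclyM-KO cells. Which receptor RNA was in excess at 3 h depended on the length used. With the length of all annotated exons *Il10ra* per *Il10rb* was 1.09 in control and 1.26 in AclyM-KO cells at 3 h.

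**Figure D4:**
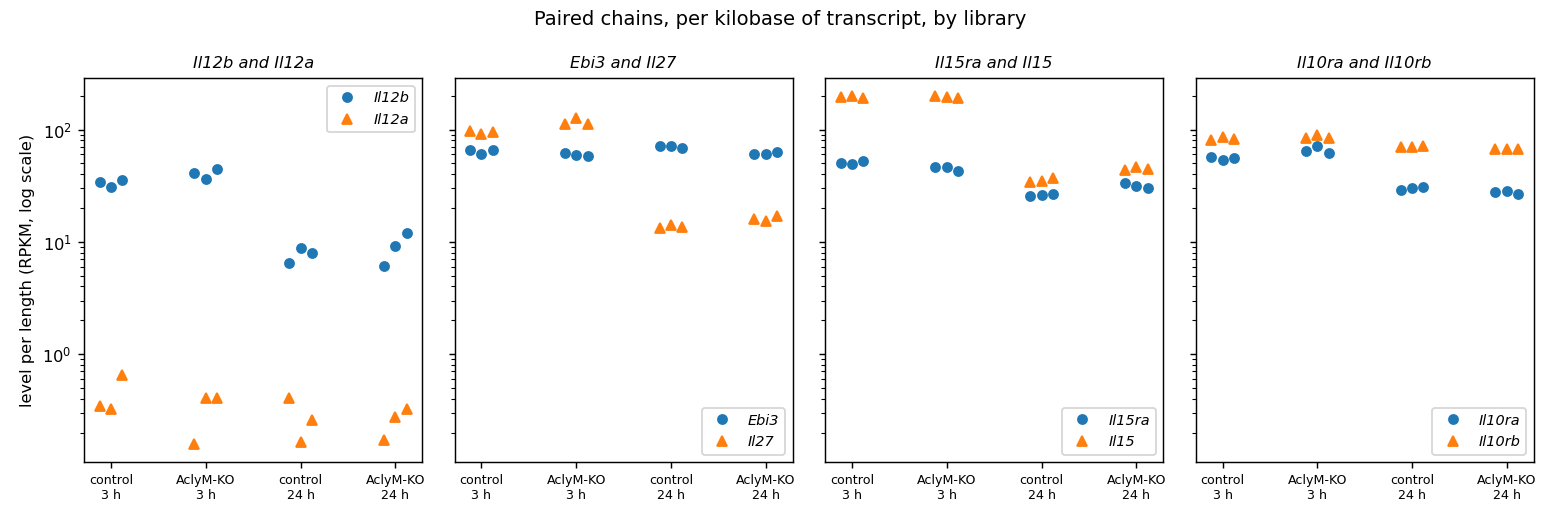
Level per transcript length (y axis, RPKM on a log scale) of chains that pair in 1 cytokine or receptor, in each of the 12 libraries by genotype and time (x axis), with 1 panel per pair. Points are libraries. Il27 lies above Ebi3 at 3 h and below it at 24 h, and Il15 lies above Il15ra in every group.

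The receptors through which these cytokines act were followed from a fixed list of 5 IL-12 family receptor chains, all of which were tested. In each genotype 2 rose and 2 fell from 3 h to 24 h by edgeR's quasi-likelihood test, where 20.9% and 21.9% of all genes tested rose and 19.5% and 20% fell in control and AclyM-KO cells. DESeq2 called 3 of the 5 changed in control and 4 in AclyM-KO cells. *Il12rb1*, the chain that binds p40, was at 2.11 ± 0.28 CPM in control and 2.97 ± 0.63 CPM in AclyM-KO cells at 3 h and at 43.1 ± 2.84 and 44.9 ± 1.38 CPM at 24 h (mean ± SD, n = 3). Its log2 fold change was 4.34 (SE 0.11) in control and 3.93 (SE 0.11) in AclyM-KO cells (edgeR's quasi-likelihood test, adjusted p = 4.71e-25 and 1.50e-24), so this receptor chain rose while its ligand chain *Il12b* fell. The chains of the list that fell were *Il12rb2*, with log2 fold changes of -1.87 in control and -2.16 in AclyM-KO cells, and *Il27ra*, with -1.09 and -1.72. The *Il27ra* values rest on few counts (SE 0.44 and 0.43, edgeR adjusted p = 0.0274 and 7.00e-04). It had 10, 8 and 13 counts in control and 11, 17 and 21 counts in AclyM-KO libraries at 3 h. At 24 h it had 7, 7 and 12 counts in control and 4, 9 and 5 counts in AclyM-KO libraries. *Il23r*, which binds p19, rose by 2.91 and 2.68 on the log2 scale, to 5.14 ± 1.31 and 4.68 ± 0.80 CPM at 24 h. Of the chains through which IL-15 signals, *Il2rg* was tested and not changed (log2 fold change 0.55 and 0.59), and *Il2rb* was not tested. Of 4 IL-10 relatives 1 was tested: *Il19* had 16, 14 and 20 counts in control and 9, 17 and 14 counts in AclyM-KO libraries at 3 h, and 0, 0 and 2 counts and 2, 0 and 2 counts at 24 h. It fell in both genotypes (edgeR's quasi-likelihood test, adjusted p = 1.86e-08 and 9.00e-06), and the counts at 24 h were too few to size its fold change.

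Among 9 JAK kinases and STAT factors, which carry the signals of these receptors, 2 rose and 4 fell from 3 h to 24 h in each genotype, beside the same shares of all genes. *Stat5a*, which acts below the IL-15 receptor, fell, with log2 fold changes of -4.36 in control and -4.16 in AclyM-KO cells, as did *Stat5b* with -1.36 and -1.29. All 9 IL-10 response and SOCS genes fell in both genotypes, where 19.5% of all genes fell in control and 20% in AclyM-KO cells. The median log2 fold change of the 9 was -2.38 in control and -2.15 in AclyM-KO cells, against 0.04 in both for all genes. Whether IL-10 induced these genes here was not tested. In control and AclyM-KO cells, log2 fold changes were -4.98 and -4.802 for *Cish*, a feedback inhibitor induced by STAT5, -2.88 and -2.15 for *Il4ra*, the alpha chain of the IL-4 receptor, and -2.55 and -2.56 for *Nfil3*, a transcription factor induced by IL-10. Of 16 transcription factors known to act on these cytokine genes 1 rose and 9 fell in each genotype, where about as many of all genes rose as fell (20.9% and 19.5% in control cells). Log2 fold changes in control and AclyM-KO cells were -2.88 and -3.30 for *Nfkbiz*, which encodes a nuclear NF-kappaB cofactor, -2.59 and -2.57 for *Rel*, the NF-kappaB subunit c-Rel, and -2.56 and -2.85 for *Irf8*, an interferon regulatory factor.

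Between genotypes 1 of the 41 tested genes of these lists was changed at 3 h and 0 at 24 h by edgeR's quasi-likelihood test. DESeq2 also called 1 and 0, and of all genes tested 2.01% and 1.38% were changed. An unadjusted p under 0.05 in edgeR's test was found for 20 and 23 of the 41. Of all 11942 genes, 2919 had a p of at most 0.0330 and 3717 of at most 0.0672 at 3 h. At 24 h 3057 had a p of at most 0.0463 and 3586 of at most 0.0719. *Ets2*, a transcription factor of the ETS family, was at 40.3 to 44.1 CPM in control and 71.5 to 83.6 CPM in AclyM-KO libraries at 3 h, and was higher in AclyM-KO cells by 0.87 on the log2 scale (SE 0.07, edgeR's quasi-likelihood test, adjusted p = 8.44e-11). The genotype effects at 3 h and 24 h differed for 3 of the 9 JAK and STAT genes (*Jak1* by 0.44, *Jak2* by 0.43 and *Stat3* by 0.33 on the log2 scale, all higher at 24 h relative to 3 h), by edgeR's quasi-likelihood test with adjusted p = 1.55e-04, 2.56e-04 and 2.35e-03, where 9.59% of all genes differed. *Jak1* and *Stat3* transmit IL-10 signals, and *Jak1* is also used by the IL-15 receptor. The effects also differed for *Il6st*, the chain shared by IL-27 and IL-6 receptors, by 0.36, for *Il4ra*, *Socs3* and *Sbno2* of the IL-10 response list by 0.73, 0.40 and 0.31, and for 4 of the 16 transcription factors (*Batf* 0.60, *Ets2* -0.63, *Maf* -0.43 and *Nfkbiz* -0.41), beside the same 9.59%.

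For *Il12b*, *Il10* and *Il15*, the genes with the most similar pattern over the 12 libraries were taken from 11671 genes by the root-mean-square difference of their scaled log2 CPM. Nearest to *Il15* were *Clic4* (0.033), *Map2k3* (0.051) and *Cd40* (0.054). *Cd40*, the co-stimulatory receptor, was at a mean of 495 CPM in control and 504 CPM in AclyM-KO cells at 3 h and at 84.2 and 116 CPM at 24 h. Nearest to *Il10* were *Nusap1* (0.098), *Ythdf1* (0.11) and *Homer1* (0.11), and nearest to *Il12b* were *Emp2* (0.13), *Cacnb3* (0.14) and *Far1* (0.14). These differences describe patterns that share libraries and carry no test.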

How the data were processed

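RNA was measured in 13 BMDM libraries. The authors made strand-specific mRNA libraries, and the submitters' processing notes name CASAVA 1.8.2, STAR 2.5.2b and mm10. SAMtools filtering and HOMER tag counting followed, and the deposited values are these raw counts per RefSeq transcript, without normalization, on 35745 transcripts. The strand setting of the counting was not given in the sources used here. The file holds no RPKM, and 0 of its columns were left unused. Symbols came from a RefSeq gene table (35435 transcripts) and GENCODE's annotation of GRCm38 (35628 in all), and the 117 transcripts without a symbol took 1.13% of counts.

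Genotype, time and replicate were taken from the labels. The 10 genes and all lists were chosen with earlier results of these data known. Counts were fitted in R 4.3.3 with edgeR 4.0.16 (TMM, filterByExpr, robust quasi-likelihood test) in 1 model of 4 groups and 12 libraries, without control 24 h replicate 1. P-values were adjusted by the Benjamini-Hochberg method over all transcripts tested, and the steps were tested on simulated data. Changed means an adjusted p under 0.05 and a log2 fold change beyond 0.75, thresholds of the study's methods. A difference between genotype effects needed the adjusted p alone. DESeq2 1.42.0, which the study used, was an alternative, as were other size factors, no filter, all 13 libraries, 1 transcript per gene, only the 2 groups compared, a replicate block and leaving out each library. CPM use TMM library sizes. RPKM divide CPM by the GENCODE length of the transcript, or by the length of all exons of the gene as an alternative. SE were derived as the log2 fold change over the square root of F.

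Named genes were the 10 genes, *Acly*, every gene of the lists changed between genotypes, the 2 list genes with the largest changes over time in each genotype, and the 3 nearest genes in pattern to *Il12b*, *Il10* and *Il15*. *Lyz2*, *Adgre1*, *Mertk*, *Fcgr1*, *Cd14*, *Ccr7*, *Il12rb2* and *Il27ra* were named after their values were seen. So were the untested or unchanged *Il2rb* and *Il2rg*, and the list genes whose genotype effects differed between the times. Replicates of a group differed beyond sampling noise (chi-square per degree of freedom 2.71 to 12.4). Depth limits *Il12a* and *Il23a* above all, and among the list genes also *Il27ra* and *Il19*.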

Additional observations from a re-analysis of the deposited data

Results flagged for a closer look

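In control 24 h replicate 1, the library of 34467 counts, 6 of the 10 genes lay apart from the other 3 control 24 h libraries by Dixon's test. In CPM, *Il12b* was at 112, *Il27* at 67.2, *Il10rb* at 112, *Il15* at 224, *Il15ra* at 22.4 and *Ebi3* at 0. These rest on 5 counts of *Il12b*, 3 of *Il27*, 5 of *Il10rb*, 10 of *Il15*, 1 of *Il15ra* and 0 of *Ebi3*, and all 3 counts that a 0 allows would be 67.2 CPM. Among libraries of like depth, chance alone gives such a mark in about 1 in 20 groups. That rate does not hold here, where 1 count of this library is worth 22.4 CPM. Control means of *Il12b*, *Il27* and *Il15* were 62.5, 96.0 and 244 CPM at 3 h. At 24 h, without this library, they were 14.4, 13.9 and 44.1 CPM. For these genes its values lay closer to the 3 h means. For *Il10rb*, *Il15ra* and *Ebi3* they lay below the control means of both times. Whether depth or another cause set this library apart was not tested.

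The genotype effect at 24 h minus that at 3 h differed from 0 for 3 genes by edgeR's quasi-likelihood test. The differences were -0.38 for *Il10ra*, 0.34 for *Il15* and 0.46 for *Il15ra* on the log2 scale. With all 13 libraries the difference for *Il15* was 0.33 with an adjusted p of 0.0601.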

How the results depend on the processing

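By the adjusted p alone, 4 of the 9 genes differed between genotypes at 3 h and 4 at 24 h in place of 0, and over all genes 1844 in place of 240 at 3 h, 1659 in place of 165 at 24 h, 8949 in place of 4825 over time in control cells and 9037 in place of 5011 over time in AclyM-KO cells. With the length of all exons, *Il15ra* per *Il15* was 0.205 and *Il10ra* per *Il10rb* 1.09 in control cells at 3 h.

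The *Il15* difference at 3 h changed sign, with log2 values of 0.0061 with DESeq2 size factors, 0.0060 by DESeq2, 0.00073 without the filter, 0.0018 with 1 transcript per gene and -0.018 to 0.018 on leaving out single libraries. Leaving out single libraries gave log2 genotype differences at 24 h of -0.28 to 0.17 for *Il12a*, -0.026 to 0.45 for *Il12b* and -0.12 to 0.21 for *Il10*, and differences between the genotype effects of -0.068 to 0.58 for *Il12a* and -0.30 to 0.17 for *Il12b*. None of these passed a test, and the cause was not tested. The numbers of the 9 genes changed were 0, 0, 3, 6 and 5 (3 h, 24 h, difference of effects, time in control, time in AclyM-KO) on leaving out any single library. Over all genes, leaving out single libraries gave 206 to 324 changed at 3 h, 138 to 206 at 24 h and 789 to 1652 for the difference of effects, against 1145 with all 12. DESeq2 gave 203 and 132 genes at 3 h and 24 h.

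The replicate numbers were not taken to pair the samples, and the main fit treated all libraries as unpaired. Correlations of deviations of same-numbered libraries were -0.051 to 0.099, all below 0.1, and such values cannot exclude a pairing. Between AclyM-KO 24 h and 3 h libraries each library correlated best with its own number (0.045 to 0.071, others -0.046 to -0.006). No other pair of groups with 3 shared numbers showed this. The labels do not state a pairing, but the headers of the count columns carry running numbers that order the control 24 h libraries otherwise. By these, control 24 h replicate 4 comes first in its group, as control 3 h replicate 1 does. These libraries correlated at 0.0956, above the 0.007 to 0.068 of the same-numbered control libraries. A pairing by column number was not tested. With a replicate block the *Il12a* difference at 24 h was 0.065 and the *Il12b* difference between effects 0.033, neither past the test, and 228 genes at 3 h and 144 at 24 h were changed. The block took the adjusted p of edgeR's test for *Il27* at 24 h to 0.0929 and for *Il10* at 3 h to 0.0817. It moved no other of the 9 genes between genotypes across an adjusted p of 0.05. Only control 24 h replicate 4 has the number 4, so the block also takes this library out of every comparison. Leaving it out without a block gave 0.0749 for *Il27* at 24 h and 0.0508 for *Il10* at 3 h. The block therefore cannot separate a pairing from the loss of that library. The block left 0, 0, 3, 6 and 5 of the 9 genes changed in the order above.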
